A study of Homo sapiens with 4 samples.

Results

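The 1204 intervals described here are the wide m6A-enriched stretches that were listed in smoke-exposed bronchial epithelial cells and had no counterpart when METTL3 was knocked down. They were chosen from a deposited list of 11038 intervals for the CSE condition. The rule took those over 300 nt wide that shared not even 1 bp with any of the 13691 intervals of the knockdown list on the same chromosome and strand. The cells were 16-HBE, an established human bronchial epithelial line. In the first condition the labels give the genotype WT and exposure to 5% cigarette smoke extract (CSE) for 24 h. The other received the same exposure after siRNA against METTL3, and no control siRNA is named for the first. Each of the 2 conditions had an m6A-immunoprecipitated (IP) library and an input library, 4 samples in all, and 1 list of intervals. The series' design text mentions 3 replicates, but the sources used here do not say how they entered a list. No value below therefore has a replicate spread, no test between conditions was possible, and the intervals given cover counting error only, treating intervals as independent. Read depths were not used here, and neither list holds expression values, so less RNA from a gene and less m6A on it cannot be told apart.

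N6-methyladenosine (m6A) is written on messenger RNA by a complex whose catalytic subunit is METTL3, joined by METTL14 and WTAP. It is placed mostly within the short sequence context called DRACH, and is known to be frequent in long internal exons and around stop codons. Proteins of the YTH family bind it and affect the stability and translation of the transcript. In MeRIP-seq, an antibody to m6A enriches RNA fragments, and stretches with more IP than input signal are called.

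The files give positions (hg19, per the submitters' processing notes) but no gene names. Names were found by matching shape: an interval was paired with an exon of GENCODE release 29 of the same chromosome, strand and length when another listed interval within 500 kb matched another exon at the same spacing. This fixed both borders of 415 of the 1204 intervals. For another 415, 1 border lay at an exon border by the same spacing, and 374 were not matched. When the spacing was set wrong by 7 nt, 0 and 2 of the 1204 matched in these ways. Where both borders matched, the width is the length of an annotated exon and not of the enriched stretch. Exon classes and gene names are less certain for matches at 1 border, and a named CSE-only interval of that kind is marked as such.

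The 6 coding stretches from CSE-only intervals printed here were chosen because their genes recur below and because they show how differently these exons are built. Each has 120 bases, chosen as the coding window of the interval that holds the most DRACH, and capitals mark every DRACH (A, G or T, then A or G, then A, then C, then A, C or T). They are read 5′ to 3′ on the transcript's strand from the GENCODE release 29 transcript (GRCh38), while interval positions are those of hg19.
PCF11, bases 254 to 373 of chr11:82876642-82877756, plus strand: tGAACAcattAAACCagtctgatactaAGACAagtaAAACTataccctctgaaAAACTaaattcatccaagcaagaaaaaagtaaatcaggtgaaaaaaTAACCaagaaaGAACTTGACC
TIPARP, bases 42 to 161 of chr3:156395446-156396403, plus strand: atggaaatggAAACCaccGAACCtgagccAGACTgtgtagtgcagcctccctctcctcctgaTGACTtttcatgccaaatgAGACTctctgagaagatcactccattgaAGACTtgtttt
NFATC3, bases 891 to 1010 of chr16:68155890-68157024, plus strand: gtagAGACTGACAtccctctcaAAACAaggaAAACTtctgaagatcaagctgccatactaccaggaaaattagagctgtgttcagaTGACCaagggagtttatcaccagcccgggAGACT
KEAP1, bases 485 to 604 of chr19:10602253-10602938, minus strand: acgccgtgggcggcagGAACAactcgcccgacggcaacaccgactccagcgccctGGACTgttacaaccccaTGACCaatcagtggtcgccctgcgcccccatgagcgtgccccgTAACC
LRP5, bases 268 to 387 of chr11:68115315-68115711, plus strand: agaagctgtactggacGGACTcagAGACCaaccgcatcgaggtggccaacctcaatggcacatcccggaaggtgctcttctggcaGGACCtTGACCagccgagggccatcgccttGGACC
DLX3, bases 291 to 410 of chr17:48072038-48072588, minus strand: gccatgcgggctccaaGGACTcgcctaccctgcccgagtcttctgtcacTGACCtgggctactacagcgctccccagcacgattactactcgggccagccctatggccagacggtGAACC
PCF11, TIPARP and NFATC3 are exons with a lower GC content of 39.4%, 43.4% and 47.0%, and hold 32, 27 and 21 DRACH in their whole length. The KEAP1, LRP5 and DLX3 exons are GC-rich, at 65.2%, 65% and 64.4%, and hold 9, 9 and 5. They are also shorter, with 686, 397 and 551 nt beside 1115, 958 and 1135 nt, so these counts are not densities. The 5-letter form GGACT occurred 2 times in each of the NFATC3, KEAP1 and LRP5 exons, 1 time each in TIPARP and DLX3, and 0 times in PCF11.

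Of the 5399 CSE intervals over 300 nt, 1204 were CSE-only, or 22.3%, beside 19.9% of the CSE intervals of any width. In the knockdown list, 1472 of 5669 wide intervals had no overlap in CSE, or 26.0%. Wide intervals were therefore listed in only 1 condition in both directions, and more of them with knockdown. The rule set these counts, and nothing is read from them. The narrowest CSE-only interval had 302 nt, at CXCL11, which encodes a chemokine. Just outside the limit was a CSE-only interval of 300 nt at SOGA1. Their scores were 341.1 and 66.4. The median width was 875 nt (95% interval 821 to 921), beside 984 nt (951 to 1024) for wide CSE intervals with overlap and 732 nt (699 to 772) for wide knockdown-only ones. The share of CSE intervals that were CSE-only was 24.4% (Wilson 95% interval 21.9 to 27.0) from 300 to 500 nt, and 9.76% (6.09 to 15.3) above 4000 nt. The 5 widest were matched to ITPRIPL2 (7699 nt), CBX6 (5775 nt), PDPK1 (5288 nt), DBNL (4801 nt) and NOL4L (4758 nt). CBX6 is a Polycomb protein and PDPK1 the kinase that activates AKT. The NOL4L interval matched a last exon at both borders. The other 4 matched at 1 border, of a last exon that holds the stop codon for CBX6, PDPK1 and DBNL. The DBNL interval ended at the 3′ border of an exon of 8680 nt and did not reach its 137 coding nt. ITPRIPL2 shared only the 5′ border of a first exon of 193 nt without coding sequence, so most of that interval lay outside the exon.

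Most CSE-only wide intervals were weak by the authors' score, a value whose scale is not stated and which starts at 50.02. Their median score was 131.4 (124.3 to 140.4), against 403.7 (376.2 to 430.5) for wide CSE intervals with overlap. Of the 1204, 842 lay below the median of the CSE list, 69.9% (67.3 to 72.5), beside 34.0% (32.6 to 35.5) of those with overlap. The share that was CSE-only was 44.3% at scores from 50 to 100, 19.5% from 200 to 500 and 4.24% (2.73 to 6.53) at 3100 or more. In the upper 50% of the CSE list by score, 362 CSE-only wide intervals were left, or 11.6% of the wide ones there. In all, 74 of the 1204 had scores of at least 1000, and 58 of these were matched to a gene.

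**Figure D1:**
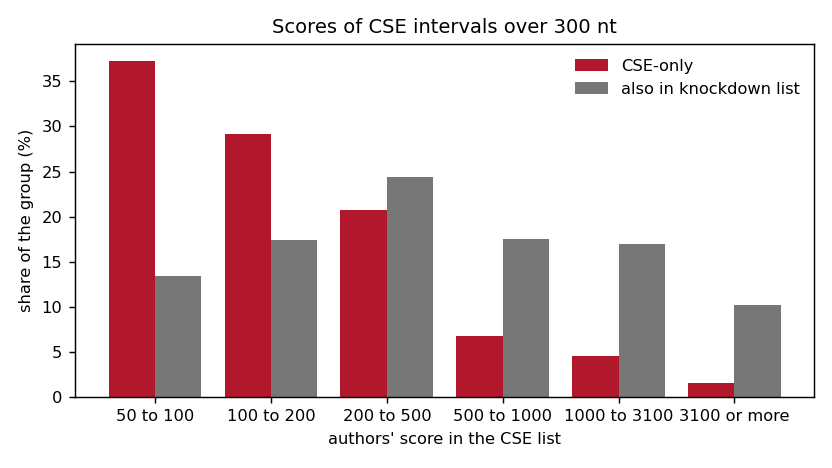
Distribution of the authors' score (x axis, classes of score within the CSE list) for the 1204 CSE-only intervals over 300 nt (red) and the 4195 that also overlap the knockdown list (grey), as percent of each group (y axis). The class from 50 to 100 holds 37.3% of the CSE-only intervals and 13.4% of the others, and the class of 3100 or more holds 1.58% and 10.2%.

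Distances to the knockdown list are conditioned on the rule, which bars overlap, and are given as a description. The nearest knockdown interval on the same strand was a median of 36768 nt away (30897 to 42859), and wide knockdown-only intervals lay a median of 44110 nt (38503 to 51437) from the CSE list. For 58 intervals, 4.82%, one lay within 1000 nt, and for 379, 31.5% (28.9 to 34.2), within 10 kb. When intervals of either list on a strand were joined into neighbourhoods wherever the gap did not exceed 10 kb, 739 of the 1204 stood alone, 61.4% (58.6 to 64.1), and 115 had another CSE-only wide interval beside them. Only 3 overlapped a knockdown interval of the opposite strand. Interval names carry running numbers that are not all listed. Between the flanking knockdown intervals of either strand at least 1 number was unlisted for 1117 of the 1194 that had such flanks, so a knockdown call that was not listed may exist there if the numbers count calls. For 77 the numbers left no gap, among them the intervals at PCF11, NCOA3, FAT1 and BRD3, and 1 of a pair at HELZ.

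Matched CSE-only wide intervals held more first and last exons and fewer internal ones than intervals found in both lists. Of the 830 matched, 826 belonged to protein-coding genes, or 99.5%, beside 99.8% of those with overlap and 99.3% of knockdown-only ones. The matching took protein-coding genes first, so nothing is read from this share. The matched exon held coding sequence for 755 of the 830, or 91.0%, beside 94.8% and 89.8%. For matches at 1 border this describes the exon, and the interval may not reach its coding part. The exon was the last of its transcript for 429, 51.7% (48.3 to 55.1), internal for 212, 25.5% (22.7 to 28.6), and the first for 179, 21.6% (18.9 to 24.5). The matched exon held the stop codon for 425, again as a trait of the exon and not of the interval. Wide CSE intervals with overlap were less often last exons, 41.2% (39.5 to 42.9) of 3215 matched, and more often internal ones, 43.5% (41.8 to 45.2). Wide knockdown-only intervals lay between, with 46.0% (43.0 to 49.0) last and 31.3% (28.6 to 34.2) internal exons of 1050 matched. An exon whose end is annotated differently can match at 1 border only, and 269 of the 415 such CSE-only intervals were last exons that matched at the 5′ border. Among those with both borders matched, last exons made up 33.7% (29.4 to 38.4) of CSE-only intervals, 21.6% (19.8 to 23.5) of those with overlap and 29.6% (25.9 to 33.6) of knockdown-only ones. Wholly coding exons made up 31.8% (27.5 to 36.4), 53.2% (50.9 to 55.4) and 34.2% (30.3 to 38.3) in the same order. CSE-only and knockdown-only intervals both had lower shares of internal and of wholly coding exons than common ones, which here are those of the CSE list. Knockdown intervals that overlap the CSE list were not described in this way. Internal exons with both borders matched were 41.7% (37.0 to 46.5) of CSE-only, 64.5% (62.3 to 66.6) of common and 43.7% (39.6 to 47.9) of knockdown-only intervals, so among these, CSE-only intervals were more often internal than last exons.

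**Figure D2:**
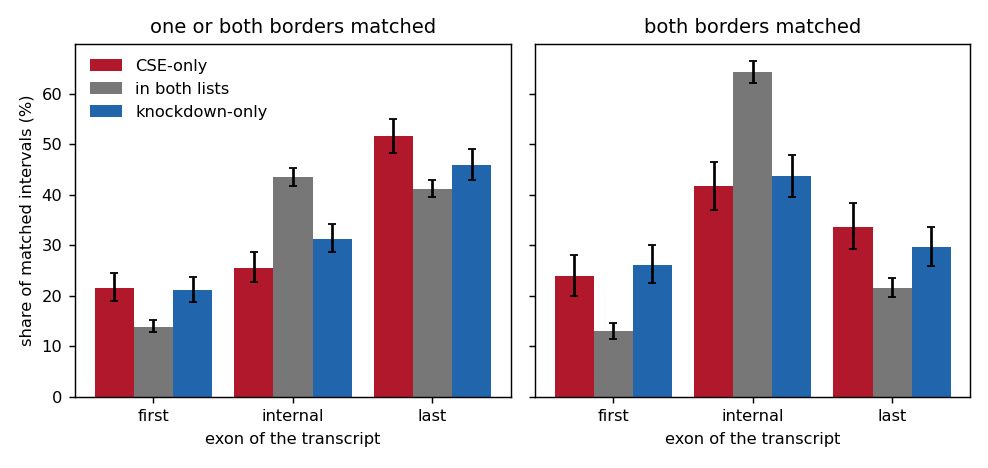
Share of matched intervals over 300 nt (y axis, percent, with Wilson 95% intervals as bars) that are first, internal or last exons (x axis), for CSE-only intervals (red), CSE intervals found in both lists (grey) and knockdown-only intervals (blue). The left panel takes all matches, the right panel only those with both borders matched, and in both the grey bar is highest among internal exons.

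CSE-only wide intervals came from GC-rich exons. With both borders matched, their median GC content was 58.6% (57.2 to 59.9, 415 exons), against 51.4% (50.7 to 52.0, 1896 exons) for wide CSE intervals with overlap and 55.2% (53.0 to 56.8, 547 exons) for wide knockdown-only intervals. GC content was not used to choose the intervals. The share of wide CSE intervals that were CSE-only was 7.63% (4.88 to 11.7) for exons under 40% GC, 16.6% (13.2 to 20.6) from 50 to 55% and 29.5% (24.4 to 35.1) from 60 to 65%. In the knockdown list the share that was knockdown-only was 22.1% (17.8 to 27.2) under 40% GC, 17.7% (14.2 to 21.8) from 50 to 55% and 27.7% (22.6 to 33.3) from 60 to 65%. The CSE-only share was lowest in the most AT-rich class, whereas the knockdown-only share was lowest from 40 to 45% GC, at 14.5% (11.5 to 18.2). Whether the lists differ in this was not tested.

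**Figure D3:**
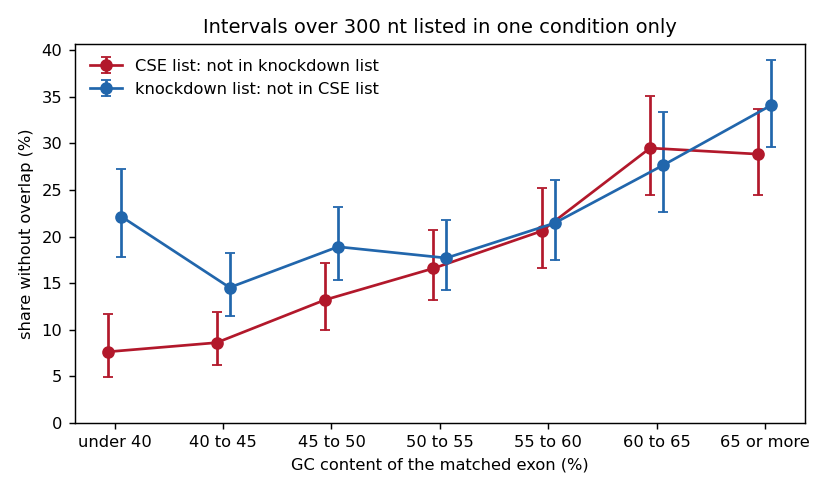
Share of intervals over 300 nt with no overlap in the other list (y axis, percent, with Wilson 95% intervals) by the GC content of the matched exon (x axis), for the CSE list (red) and the knockdown list (blue). The red points go from 7.63% under 40% GC to 28.8% at 65% or more, and the blue points from 22.1% to 34.1%.

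The difference in GC content lay in internal and last exons. Internal exons had a median of 58.0% (55.6 to 60, 173 exons) in CSE-only intervals, 49.4% (48.7 to 50, 1222 exons) in those with overlap and 51.7% (48.4 to 53.1, 239 exons) in knockdown-only ones. Last exons had 55.5% (53.2 to 57.5), 52.1% (51.0 to 53.3) and 50.7% (48.0 to 52.2). First exons were GC-rich in all 3 sets, at 65.8% (63.5 to 67.8), 65.1% (63.2 to 66.9) and 67.5% (65.3 to 69.5). Score moved with being CSE-only too. Below the median score of the wide CSE intervals, the CSE-only share was 14.7% (10.9 to 19.6) under 45% GC and 43.7% (39.1 to 48.3) at 55% or more. At or above that median it was 3.43% (1.97 to 5.90) and 11.9% (9.39 to 14.9). In the upper 50% of each list the CSE-only median was 56.1% and that of knockdown-only intervals 56.5%, so the order of these groups did not hold there. The part of library preparation or depth in this relation was not tested.

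**Figure D4:**
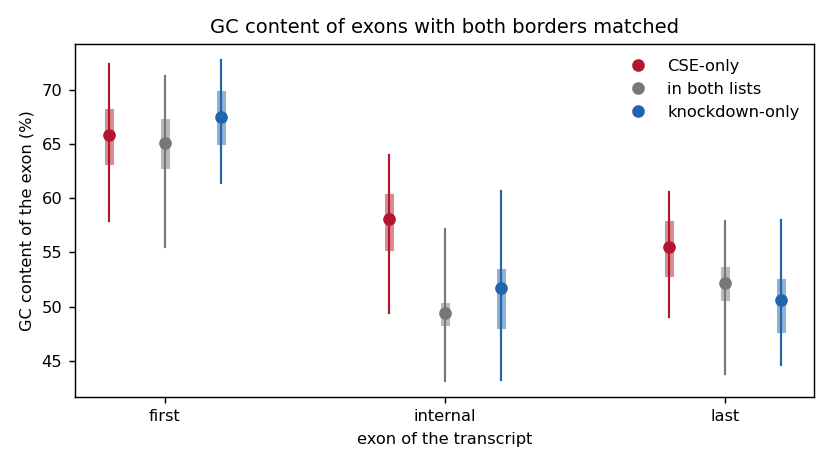
GC content (y axis, percent) of first, internal and last exons (x axis) with both borders matched, for CSE-only (red), common (grey) and knockdown-only (blue) intervals over 300 nt. Points are medians, thick bars their 95% intervals and thin bars the quartiles, and among internal exons the CSE-only median of 58.0% is above 49.4% and 51.7%.

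DRACH was found in nearly all of these exons and was sparser in the CSE-only ones. At least 1 occurred, on the interval's strand, in 412 of 415 CSE-only exons, in 99.8% of those with overlap and in 99.1% of knockdown-only ones. Its median density per 1000 bases was 16.9 (16.1 to 18.1), against 21.1 (20.5 to 21.5) and 18.5 (17.5 to 19.3). Density was lower at higher GC content. With 50 to 60% GC the medians were 19.0 (17.8 to 19.7), 20.6 (20.1 to 21.3) and 19.6 (18.1 to 21.4). Among exons of 60 to 70% GC the medians were 15.5 (14.5 to 15.9), 14.7 (13.9 to 15.5) and 15.0 (14.2 to 16.3), and among those of 40 to 50% GC 21.2 (19.3 to 24.1), 24.2 (23.4 to 24.7) and 21.9 (20.9 to 23.6). GGACT, which is one of the DRACH forms, was present in 58.8% (54.0 to 63.4) of CSE-only exons, 61.0% (58.8 to 63.1) of those with overlap and 53.4% (49.2 to 57.5) of knockdown-only ones. A match of letters is not a methylated site.

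The 830 matched intervals fell in 773 genes, of which 723 had 1, 44 had 2, 5 had 3 and 1 had 4. For 440 genes, 56.9% (53.4 to 60.4), the knockdown list held a matched interval elsewhere in the same gene. The reverse share was near it: of 977 genes with a wide knockdown-only interval, 530 had a matched CSE interval, 54.2% (51.1 to 57.3). A matched knockdown interval was found for 73.2% (66.7 to 78.9) of genes with an internal exon among the CSE-only intervals. For those with a last exon it was 51.7% (46.9 to 56.4). Of the 773 genes, 333 had no matched knockdown interval. For 309 of these 333, no knockdown interval of the strand lay within 10 kb of the CSE-only one either. A wide knockdown-only interval was matched in 82 of the 773 genes, or 10.6%, which is 8.39% of the 977 genes that held such an interval.

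The 19 CSE-only wide intervals with a score of at least 3100 covered genes of varied function, 15 of them matched. The highest score, 3209.5, was at exon 5 of 16 of PCF11, a subunit of the machinery that cleaves the 3′ ends of messages. In the same gene the exons at chr11:82879470-82881037 and chr11:82892896-82893051 were listed in both conditions, and its first and last exons only with knockdown. Also listed were DHX34, a helicase of nonsense-mediated decay, SRPK2, a kinase of splicing factors, and EIF4A3, a core protein of the exon junction complex. KRT8, a keratin of simple epithelia, had its last exon listed, and EZR, which links membranes to actin, also its last exon. The rest of those matched were HYPK, AMPD3, TIPARP, VEGFB, RABL6, ALOXE3, OGA, VIPAS39 and NUPR1. HYPK shared only its 3′ border with the interval. VEGFB, VIPAS39 and NUPR1 were also matched at 1 border. For 8 of the 19 a knockdown interval lay within 10 kb on the same strand, and for 11 the gene had a matched knockdown interval. Another 18 intervals shared a score of 3100 below PCF11, and 4 of these were not matched, the widest at chr3:5024521-5026865 and chr2:151324707-151326752.

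Of the 74 with a score of at least 1000, a few whose genes are known regulators were chosen for mention after their values were seen. Among the 74, 58 were matched, and for 39 of these the gene had a matched knockdown interval. KLF5, a transcription factor of epithelial cells, had exon 2 listed with a score of 2987.3 and was the only matched interval of its gene in either list. FOS, a subunit of the AP-1 factor, had an interval at chr14:75747486-75748937 with a score of 1694.1, matched at 1 border to its last exon, and again no matched knockdown interval. NFKBIA and TNFAIP3 encode inhibitors of NF-kB signalling, and in both a different exon was listed in each condition. For NFKBIA, the CSE list had an interval matched at 1 border to the first exon (337 nt, score 2841.6) and the knockdown list the last (551 nt, score 1305.3). For TNFAIP3, exons 2, 7 and 8 of 9 were listed only in CSE, with scores of 102.5, 1255.6 and 278.0, and exon 9 only with knockdown, with a score of 287.9. Scores rank intervals inside 1 list only, so those of the lists are not compared.

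In HELZ, which encodes an RNA helicase, neighbouring exons were split between the lists. Exons 29 and 31 of 33 were CSE-only, with scores of 1801.1 and 2018.6, exon 30 was listed only with knockdown, with a score of 3100, and exons 27, 28 and 32 were in both lists. BRD3, a reader of acetylated histones, had 5 exons in both lists. Its exon 2 of 12 was CSE-only (326 nt, score 1085.5), although a knockdown-only interval lay 124 nt away. NCOA3, a coactivator of nuclear receptors, had exon 12 of 23 listed only in CSE with a score of 2489.8, and 4 other exons in both lists.

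Genes with several CSE-only wide intervals came in different forms. SEMA4D, a membrane semaphorin, had 4, with scores of 219.9 (matched at 1 border), 117.1, 66.0 and 233.7, and a further short interval that was also CSE-only. No knockdown interval was matched in the gene, and the nearest on its strand was 2090161 nt away. NFATC3, a calcium-regulated transcription factor, had 3, with scores of 54.4, 119.0 and 621.5, the last matched at 1 border. DLX3, a homeobox factor of epidermal differentiation, had 3 that together made up its neighbourhood, with scores of 68.3, 70.2 and 96.6. ARHGEF17 had 3, with scores of 103.6, 193.2 and 55.5, of which the first and the last were matched at 1 border. These 4 genes were without a matched knockdown interval. Apart from 1 interval each at NFATC3 (621.5) and SEMA4D (233.7), their wide intervals scored below the CSE median of 223.8. Between the flanks 21, 13, 8 and 13 knockdown numbers were unlisted, in the order named.

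KIF1C, a kinesin motor, had 2 neighbouring ones with scores of 410.4 and 2303.5, the latter matched at 1 border. A neighbourhood on chromosome 17 held 1 each at ALOXE3, a lipoxygenase, and, matched at 1 border, HES7, a repressor of the Notch pathway. LRP5 and NR4A3 had other intervals with knockdown. LRP5, a Wnt co-receptor, had 8 CSE intervals. Its exons 2, 6 and 23 of 23 were CSE-only, with scores of 547.4, 84.1 and 65.8. Its exons 1, 5, 7, 12 and 13 had the same borders in the CSE and knockdown lists. NR4A3, a nuclear receptor induced by many stimuli, had 6 CSE intervals, of which 5 were CSE-only and 3 of those wide, with scores of 132.1, 172.7 and 147.2, the latter 2 matched at 1 border. The 953 nt exon at chr9:102590323-102591275 was common to the lists, with a score of 3100 for CSE and 131.2 for knockdown. It was the only NR4A3 interval matched with knockdown.

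Far from any listed knockdown interval lay 5 of the better-scored intervals. They were chosen as the 5 with the largest distance among those in the upper 50% of the CSE list by score. The interval at KLF5 was 2737947 nt from the nearest knockdown interval of its strand. A pair at NAV3, a cytoskeletal regulator, covered exon 8 (1027 nt, score 797.8) and exon 15 (709 nt, score 245.6) and were 2504482 and 2617300 nt away. The farthest, chr3:67053619-67054733 and chr14:86087483-86090767, were not matched. Between the flanks, 9 to 25 knockdown numbers were unlisted for these 5.

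Over all 4045 matched wide CSE intervals, 20.5% were CSE-only, and the counts of gene lists stand beside that share as a description. Being CSE-only is what the rule used, and nothing is read from a list's share. In the aryl hydrocarbon receptor pathway, which senses compounds of smoke and induces their metabolism, 3 of 5 were CSE-only, each at a different gene. ARNT, the receptor's partner, had 0 CSE and 2 knockdown intervals, neither of them wide. The list's 2 wide knockdown intervals were at AHR and CYP1B1, and 0 of these 2 were knockdown-only. TIPARP, an induced repressor of the receptor, had exon 2 of 6 (958 nt, score 3100) and a short exon 3 (169 nt, score 61.6) listed only in CSE, and no knockdown interval matched. CYP1B1, a smoke-metabolising enzyme, had exon 2 of 3 (1044 nt, score 175.4), which is almost wholly coding, while its last exon was listed in both conditions. AHR, the receptor itself, had an interval matched at 1 border to its first exon (678 nt, score 137.6) listed only in CSE. Its 1243 nt exon 10 of 11 was in both lists. With 5 intervals, the share had a 95% interval from 23.1 to 88.2%. In the NRF2 list, KEAP1, the sensor that holds NRF2 in check, had its only interval CSE-only (686 nt, score 97.7). HMOX1 and TXNRD1 had 1 short interval each in CSE, and 0 of these 3 genes had a matched knockdown interval.

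No matched CSE-only wide interval lay in a listed gene of the m6A machinery, and 374 of the 1204 were not matched to any gene. The count was 0 of 9 wide CSE intervals for the writers, which allows up to 29.9%, and 0 of 8 for readers and erasers, which allows up to 32.4%. For the writers, 4 of 13 wide knockdown intervals were knockdown-only. The CSE-only count was 0 of 2 in the JAK, STAT and SOCS list, which allows up to 65.8%. Zinc finger genes, whose last exons are long and encode the finger arrays, had 31 of 247, or 12.6% (8.98 to 17.3), in 30 genes. The highest scores were 945.6 at ZNF296, matched at 1 border, and 803.4 at the last exon of ZNF274. In the knockdown list 59 of 274 wide zinc finger intervals were knockdown-only, or 21.5% (17.1 to 26.8).

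Of the protocadherins, 9 of 17 were CSE-only, or 52.9% (31.0 to 73.8). All 9 lay in the gamma cluster, chr5:140710252-140802824 on the plus strand, and matched at 1 border. Its variable exons encode the outer parts of adhesion proteins and are joined to shared 3′ exons. That neighbourhood held the most CSE-only wide intervals, 12 of its 16 CSE intervals. The 9 scored from 81.0 at PCDHGA3 to 516.5 at PCDHGB5. Such variable exons are similar in sequence, so reads may be shared between them, and they are not independent. The Wnt list had 4 of 16, at LRP5 and TCF7L2, and the Hippo list 3 of 8, at LATS1 (2, 1 of them matched at 1 border) and TEAD1 (matched at 1 border). The EMT and TGF-beta list had 1 of 11, the first exon of SMAD2. Each list held matched intervals for 7 of 12 epithelial markers, but not for the same 7. CDH1, EPCAM, KRT5, TJP1, OCLN and DSP were in both lists, KRT8 only in CSE and CLDN1 only with knockdown. KRT7, KRT18, KRT19 and PKP3 were in neither. Of 10 markers of blood, endothelium and fibroblasts 1, COL1A1, had a matched interval. KRT8 was the 1 epithelial marker with a CSE-only wide interval.

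**Figure D5:**
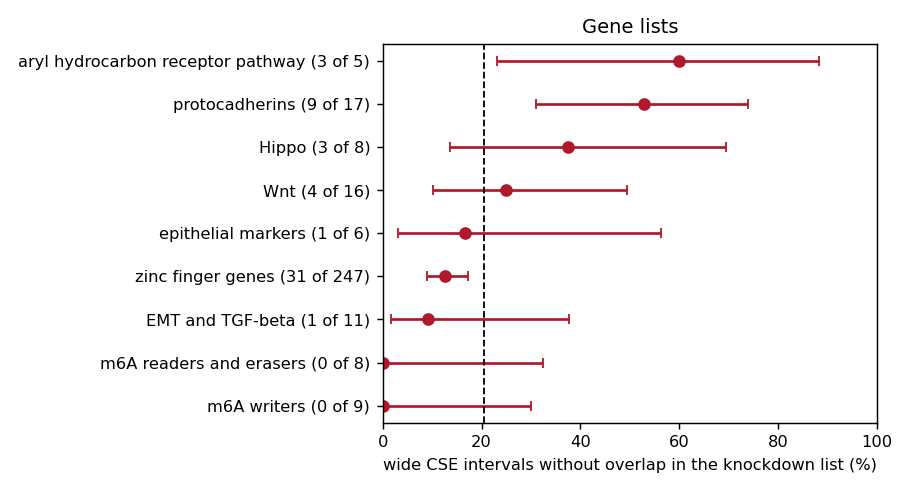
Share of matched CSE intervals over 300 nt that had no overlap in the knockdown list (x axis, percent, with Wilson 95% intervals) for each gene list described in the text that has at least 5 such intervals (y axis, with counts). The dashed line marks 20.5% for all matched wide CSE intervals, and the points run from 0 for the m6A lists to 3 of 5 for the aryl hydrocarbon receptor pathway, as a description of intervals that are not independent.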

How the data were processed

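The deposited files are 1 list of intervals per condition giving position, strand, a name and a score. The submitters' processing notes name HISAT2 2.0.4 and the build hg19. The score is the authors' own value in the deposited lists, on a scale that is not stated, and was used only within a list. Names start with MACS. The caller's settings, the selection of listed intervals and the handling of replicates are not stated.

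Overlap meant at least 1 bp on the same strand, and positions count from 1. The reference available here was GENCODE 29 (GRCh38). No position was carried between builds: exons were matched by length and by spacing to another listed interval, a step added after the data were seen. Genes, exon classes, GC content and motifs had been planned only with an hg19 annotation, so they rest on this match and on GRCh38 transcript sequence. For a match at 1 border, the exon of nearest length at that border gave the class, after protein-coding genes and transcripts had been put first. Of 830 matched intervals, 4 had a border shared with another protein-coding gene.

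Shares carry Wilson 95% intervals and medians exact binomial order-statistic intervals. Named intervals were the 5 highest by score (ties broken by width), 5 widest, 5 most distant in the upper 50% by score, the 5 neighbourhoods with most members, those at the width limit, genes with the most members, and list genes. The intervals and the gene lists were chosen with earlier results of these data known. Scripts used Python 3.11.15, pandas 2.3.3 and SciPy 1.17.1 and were tested on simulated data. The result of 1 gene list is not reported here. Alternatives changed the width minimum, the overlap, the score and the matching.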

Additional observations from a re-analysis of the deposited data

How the results depend on the processing

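The alternatives gave 118 values. Of these, 69 lay inside the 95% interval of the reported value, or within 1.5 times a count, and 49 did not. These are counts, shares and medians, which have no sign to reverse, but some orders turned. The GC median of CSE-only exons was above that of knockdown-only ones in 2 of 3 score settings. In first exons alone it was below, at 65.8% beside 67.5%. Among CSE-only intervals, and among knockdown-only ones, last exons outnumbered internal ones only when matches at 1 border were included. The median GGACT density of CSE-only exons was the highest of the 3 sets, at 0.940 per 1000 bases beside 0.887 with overlap and 0.627 knockdown-only. In the upper 50% by score it was the lowest, at 0.845 beside 0.930 and 0.872. With a width minimum of over 1000 nt there were 513 CSE-only and 534 knockdown-only intervals, and 19.9% of the wide CSE intervals were CSE-only. A reciprocal overlap of 50% gave 23.9%. In the upper 50% of a list by score there were 362 CSE-only (11.6%) and 388 knockdown-only intervals, and at scores of at least 100 there were 755 (17.2%) and 967. The median GC content of CSE-only exons was 56.1% in the upper 50% by score. By exon class it was 65.8% in first and 55.5% in last exons. The share of last exons was 33.7% with both borders matched only. The comparisons by gene body, exons within 5 nt and 50% of an interval's length were not run, as they needed an annotation of hg19. The GC, exon and gene alternatives were chosen after seeing the data. With 1 list per condition no replicate could be left out. No paired analysis was possible because each condition has 1 list. Low scores limit most of the 1204 intervals, and read depth was not used here.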

Other observations

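Of 50 genes with at least 2 CSE-only wide intervals, 17 had no matched knockdown interval, beside 333 of all 773 genes with at least 1. Nothing is read from the 17 as a group. Besides SEMA4D, NFATC3, DLX3, ARHGEF17 and NAV3 these 17 included the following, picked for mention after their values were seen. FOXJ1, the transcription factor of motile cilia, had 2 (667 nt with a score of 107.4, and 1440 nt with 319.7, matched at 1 border), and the nearest knockdown interval of its strand was 33109 nt away. DNAH3, an axonemal dynein heavy chain, had 2, of 639 nt with a score of 224.6 and of 2012 nt with a score of 137.5, the longer matched at 1 border. INHBA, a subunit of activin, had 2 wide ones with scores of 147.2 (matched at 1 border) and 168.0 and a short one with 390.6, all CSE-only, and the nearest knockdown interval was 263079 nt away. RORA, a nuclear receptor, had 2 with scores of 67.9 (matched at 1 border) and 88.3.

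The CSE-only wide intervals were spread over the chromosomes, from 13.6% (7.03 to 24.5) of the wide CSE intervals of chromosome 21 and 15.9% (12.2 to 20.6) on chromosome 6 to 30.2% (24.6 to 36.4) on chromosome 11 and 32.8% (25 to 41.6) on chromosome 22. On 18 of 23 chromosomes the knockdown-only wide intervals were more numerous, and on 4 the CSE-only ones were. Chromosome 22 held 39 CSE-only and 29 knockdown-only wide intervals, and chromosome 6 held 46 and 92.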
